A study of Spinacia oleracea with 12 samples.

Results

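The nitrogen (N) effect that leaf and root of spinach share was taken from the 12 RNA-seq libraries of the series, with 6 high N libraries set against 6 low N libraries and tissue kept in the model throughout. All 25495 genes of the deposited table were eligible, and 18411 of them, with a mean of at least 1 FPKM (fragments scaled to gene length and to the mapped fragments of the library) over the 12 libraries, were tested. The plants were *Spinacia oleracea* cv. Banjo, sampled 6 weeks old. High N plants received 200 ppm N and low N plants 50 ppm N, in both cases as calcium nitrate, and calcium chloride brought the low N feed to the same calcium supply, so that chloride supply differed along with N and their effects cannot be told apart. Each of the 4 groups (high N leaf, low N leaf, high N root and low N root) held 3 libraries. Groups were read from the sample titles, because the tissue or treatment field goes against the title for 9 of the 12 samples, and the source field of the 3 low N root samples names replete N. The split of roots into high and low N thus rests on their titles. RNA was taken from 3 independent plants per the methods, which do not say whether a leaf and a root library with one number came from the same plant.

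As background, plants take up nitrate and ammonium through root transporters, reduce nitrate, and fix ammonium into glutamine and glutamate, from which the other amino acids are made. Nitrate is also a signal, and families of transcription factors (NLP, NIGT1/HHO and others) switch uptake and assimilation genes on or off with supply. A leaf and a root differ in which of these genes they use at all. A difference common to both tissues is therefore a different quantity from the response of either organ, and it is the average of the leaf difference and the root difference on the log2(FPKM + 1) scale. That scale understates the change of genes at low FPKM.

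Marker genes matched the tissue named in each title, and they were not chosen as a check of the N level. Summed FPKM of 11 photosynthesis genes lay between 21529 and 31303 in the 6 leaf libraries and between 121 and 229 in the 6 root libraries. Summed FPKM of 8 root uptake transporters lay between 162 and 593 in root and between 2.51 and 8.71 in leaf, where 6 or 7 of the 8 were at 0. In root these uptake genes, which include the nitrate transporter NRT2.1, summed to 162 to 333 FPKM at high N and 453 to 593 FPKM at low N. Depth, worked back from the FPKM values, was 15627994 to 18608172 fragments per library, at which 3 fragments in a gene of 1 kb equal 0.161 to 0.192 FPKM. In bulk tissue fewer cells of a type and less RNA per cell cannot be told apart, and all values below carry that limit.

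In leaf and root alike, high N came with more transcript of a glutamine amidotransferase, of mitochondrial enzymes that break down branched-chain amino acids, and of enzymes that release and reuse wall sugars. Transcripts of a GATA factor, of some wall synthesis genes and of ATP sulfurylase were fewer. Across both tissues 70 genes changed at an adjusted p under 0.05 (limma, Benjamini-Hochberg over all 18411 genes), 0.38% of those tested. Of these, 38 rose at high N (0.206%) and 32 fell (0.174%). The rises spanned log2 differences of 0.78 to 3.42 with a median of 1.41, and the falls spanned −0.61 to −1.69 with a median of −1.01, beside a median of −0.04 over all genes tested. All 70 adjusted p-values lay between 0.0292 and 0.0492, the next gene stood at 0.0522, and 216 more genes lay between 0.05 and 0.10. The count moved with single libraries. It was 278 without high N root replicate 3, 122 without low N root replicate 1 and 42 without low N leaf replicate 1. It was 0 without high N leaf replicate 1, high N root replicate 1, low N leaf replicate 2 or low N leaf replicate 3, 1 without low N root replicate 2 or 3, 2 without high N leaf replicate 2, and 6 without high N leaf replicate 3 or high N root replicate 2. With same-numbered leaf and root libraries treated as one plant, 2 genes passed with plant as a random block (2 of the 70) and 2 with leaf and root averaged per plant (1 of the 70). In 64 of the 70 genes, high N root replicate 3 was the high N root library closest to the low N roots, against 6 for replicate 1 and 0 for replicate 2. The 70 genes themselves kept their direction and an unadjusted p under 0.05 in all 1744 gene results from 25 other settings, the largest p being 0.00332 by limma. They were picked for a small p in these same libraries, which the other settings reuse, so this is not independent support.

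**Figure D1:**
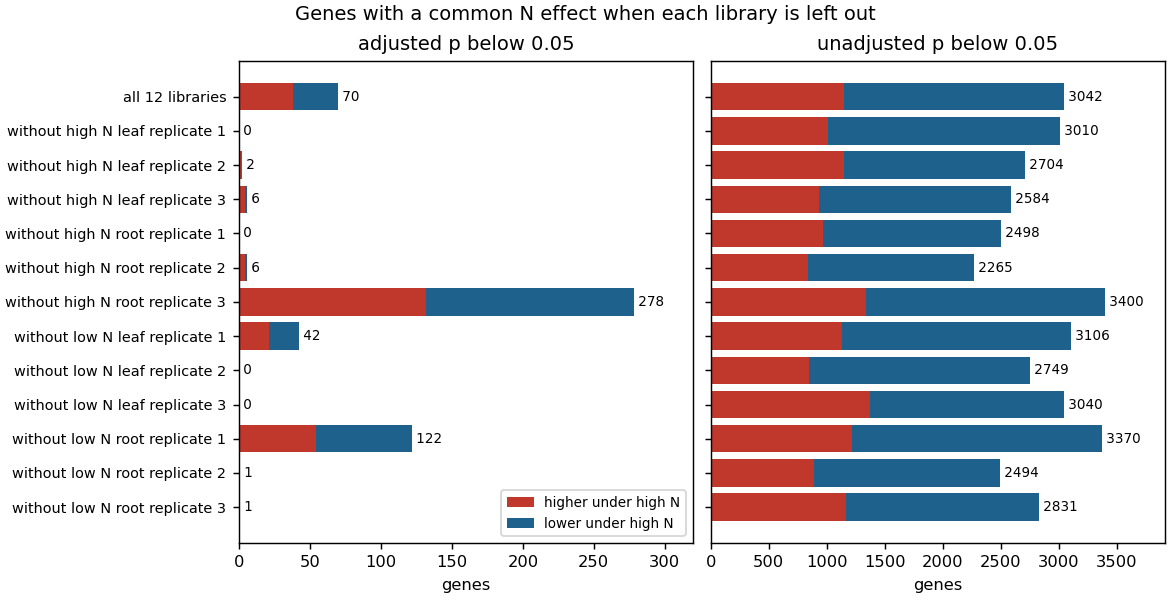
Number of genes (horizontal axes) with a common N difference at an adjusted (left) and an unadjusted (right) limma p under 0.05, with all 12 libraries and with each left out in turn, genes higher and lower at high N in separate colours. The adjusted count ran from 0 to 278 around 70, and the unadjusted count from 2265 to 3400 around 3042.

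At an unadjusted p under 0.05 the common difference took in 3042 genes, 16.5% of those tested. Of these, 1148 were higher (6.24%) and 1894 lower (10.3%) at high N, so that 37.7% were higher. That split depends on scaling, since 48.7% were higher after median-of-ratios scaling and 53.3% after quantile normalization. Among the 3042 genes, 2579 had a mean of at least 1 FPKM in both tissues, 338 lay below 1 FPKM in leaf and 125 below 1 FPKM in root. Leaf and root pointed the same way in 2918 of them, but the within-tissue limma p was under 0.05 in both organs for only 392. High and low N libraries did not overlap, in the same direction in leaf and in root, for 493 genes (2.68% of those tested), 164 with high N above (0.891%) and 329 with high N below (1.79%).

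Among the 70 genes, 66 belonged to those 493, which by construction have the smallest p that an exact permutation of N labels within tissue can give (0.005 with 400 arrangements). The other 4, which include HHO5 and a mitochondrial S-adenosylmethionine carrier, were apart in leaf and overlapped in root (exact permutation p = 0.01). The difference was larger in leaf for 46 of the 70 genes, 26 rises and 20 falls, and larger in root for 24. Only the probable aquaporin SIP1-2 (Spo18500) among them had an unadjusted p under 0.05 for the test of leaf against root (limma interaction), with log2 differences of 1.30 in leaf and 0.66 in root. The fit that called the 70 holds no interaction term and so favours genes with like differences in both organs.

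**Figure D2:**
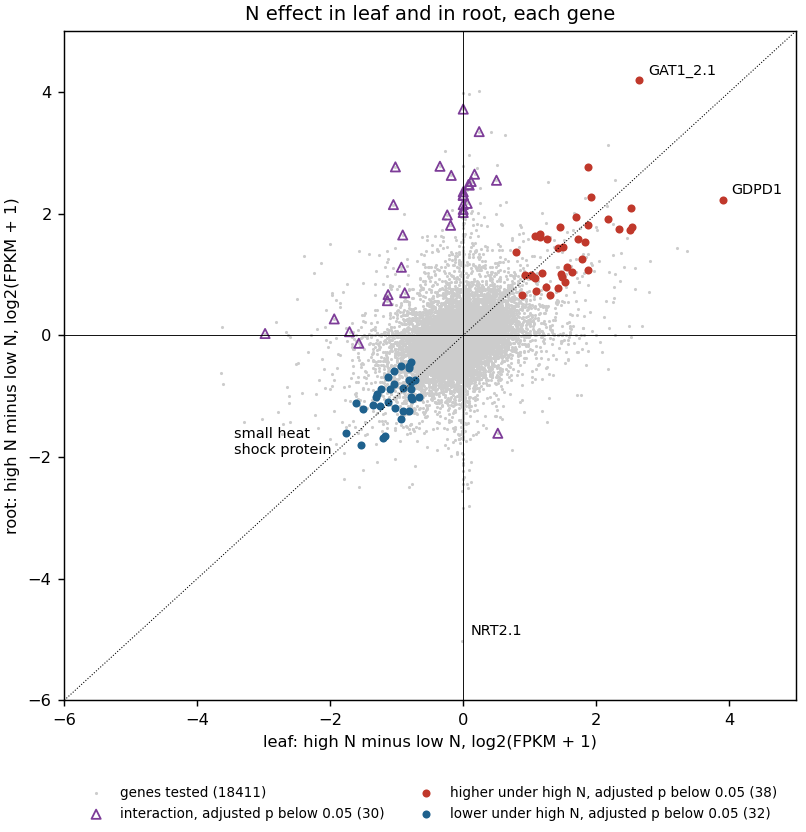
Log2 difference of high N over low N in leaf (horizontal axis) against root (vertical axis), on log2(FPKM + 1), for all genes tested, with the 70 called genes and the 30 genes of unequal leaf and root difference marked. The called genes lie along the diagonal, which the fit that called them favours because it holds no interaction term. Of the 30 unequal genes, 29 lie above the diagonal.

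Names were available for 54 of the 70 genes, and the other 16 carry no name in the sources used here. A name was at hand only for genes that the study itself had called in one of its comparisons of these libraries, so the gene groups below hold called genes by construction. Their shares of changed genes sit above 16.5% for that reason and are not independent evidence of direction. Calls within a group at the adjusted threshold come and go with the 70. Counts of genes higher or lower in a group are at an unadjusted p under 0.05 unless said otherwise.

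The largest common rise was in amino acid metabolism. Spo00216, whose protein matched the putative glutamine amidotransferase GAT1_2.1 of Arabidopsis, held 14.8, 8.73 and 3.82 FPKM in high N leaf and 1.12, 0.178 and 0.23 in low N leaf. Its root levels were 134, 251 and 34.5 FPKM at high N and 6.34, 5.62 and 3.05 at low N. High and low N libraries stood apart in both organs, and root lay above leaf throughout each N level. The common log2 difference was 3.42 (SE 0.48), with 2.64 in leaf and 4.20 in root.

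Of 15 amino acid synthesis and transamination genes tested, 10 were higher and 3 lower at an unadjusted p under 0.05. Their median log2 difference was 1.04. The group also holds proline dehydrogenase 2, of proline breakdown, and serine-glyoxylate aminotransferase, of photorespiration, so its counts do not describe synthesis alone. Besides Spo00216, plastid aspartate aminotransferase 3 (Spo25675), which moves amino groups between glutamate and aspartate, rose by 0.78 (SE 0.15). Its leaf libraries held 32.1, 21.1 and 22.6 FPKM at high N against 15.3, 13.2 and 10.8 at low N, and its root libraries 41.5, 55.3 and 40.4 against 29.8, 22.7 and 32.6. Mitochondrial alanine-glyoxylate aminotransferase 2 homolog 1 (Spo26834) rose by 1.24 (SE 0.21).

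Asparagine synthetase (Spo08792), which makes the N-rich amide asparagine, did not pass the adjusted threshold, although its libraries stood apart in both organs (log2 difference 2.38, adjusted p = 0.063 by limma). Its leaf level was 259, 333 and 465 FPKM at high N and 89.1, 27.4 and 13.6 at low N, and its root level 8.6, 24.3 and 8.32 against 6.03, 2.64 and 3.9. The difference was 3.36 in leaf and 1.39 in root on the log2 scale, and the interaction had an unadjusted p of 0.036. Glutamate dehydrogenase B (Spo13173), which links glutamate to 2-oxoglutarate, had a log2 difference of 1.04 and the aminotransferase TAT2 (Spo23245) one of 1.11, at adjusted p-values of 0.0859 and 0.0586 from limma.

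A gene matched to the nodule isozyme of glutamine synthetase (Spo01186), the enzyme that fixes ammonium into glutamine, lay on the other side. It held 14.5, 6.82 and 11.4 FPKM in high N leaf and 34.9, 33.3 and 35.6 in low N leaf, which did not overlap. In root it held 157, 164 and 435 FPKM at high N and 496, 445 and 387 at low N, where high N replicate 3 lay among the low N libraries (common log2 difference −1.30, limma adjusted p = 0.0561). The serine pathway enzymes phosphoserine aminotransferase (Spo04218) and D-3-phosphoglycerate dehydrogenase 2 (Spo04533) had log2 differences of −0.90 and −0.72 without passing the adjusted threshold. For NADH glutamate synthase 1 (Spo02549) the log2 difference was −0.30 in leaf and 0.76 in root, with a common value of 0.23 (SE 0.27). Proline dehydrogenase 2 (Spo24050), of proline breakdown, stood at 1.53 (SE 0.59), with a low N leaf range of 44.2 to 739 FPKM that overlapped its high N leaf range of 551 to 852.

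The remaining genes of this group did not pass the adjusted threshold. Their common log2 differences were 1.08 for a probable L-asparaginase (Spo26408), 1.06 for alanine-glyoxylate aminotransferase 2 homolog 3 (Spo12360), 0.60 for serine-glyoxylate aminotransferase (Spo11992), an enzyme of photorespiration, and −0.50 for a probable gamma-aminobutyrate transaminase (Spo17023). A second asparagine synthetase (Spo05295) and a serine decarboxylase (Spo13254) lay below the filter and were not tested.

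Genes for the breakdown of leucine, isoleucine and valine stood higher at high N. All 14 genes tested did so at an unadjusted p under 0.05, 5 of them rose at the adjusted threshold, and the median log2 difference was 1.25. The 5 calls became 0 to 7 when a library was left out, 0 with plant as a random block and 1 with means per plant. In 9 of the 14, high and low N libraries did not overlap in either organ. A gene matched to a plastid branched-chain aminotransferase BCAT2 (Spo14673) was at 0 in all 6 leaf libraries. It held 83.7, 33.1 and 24.7 FPKM in high N root against 6.93, 4.18 and 4.44 in low N root, so its value comes from root. Another BCAT2 match (Spo13997) stood apart in both organs without passing the adjusted threshold. Its leaf libraries held 94.9, 24.4 and 36.8 FPKM at high N and 19.3, 16.1 and 14.5 at low N. The log2 difference of Spo13997 was 1.37 in leaf and 1.46 in root. Both BCAT2 matches are counted in the group by name, and whether they serve breakdown or synthesis was not tested. Across the other settings 12 to 14 of the genes stayed higher at an unadjusted p under 0.05.

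Isovaleryl-CoA dehydrogenase (Spo22584), a mitochondrial enzyme of leucine breakdown, held 291, 166 and 227 FPKM in high N leaf and 72.2, 30.4 and 23.7 in low N leaf. In root the levels were 149.6, 313 and 81.6 FPKM at high N and 60.2, 27.3 and 55 at low N. Every high N library lay above every low N library of its tissue, and the log2 difference was 2.16 (SE 0.36). Methylcrotonoyl-CoA carboxylase alpha (Spo02348), which acts next in the leucine pathway, rose by 1.68 (SE 0.30), from 26.8, 15.6 and 19 to 135, 42.5 and 69.9 FPKM in leaf and from 52.6, 34.3 and 64.8 to 135, 247 and 87.9 in root.

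Electrons taken from branched-chain acyl groups pass through electron transfer flavoprotein and its oxidoreductase to ubiquinone in the mitochondrion. The flavoprotein alpha subunit (Spo18565) rose by 1.20 (SE 0.22) and the oxidoreductase (Spo25052) by 1.34 (SE 0.20). The oxidoreductase libraries lay close together in leaf, with 21.9, 20.7 and 22.1 FPKM at high N and 6.56, 5.59 and 6.68 at low N, and in root it held 23.3, 32.8 and 12.2 against 10.9, 8.56 and 10. Methylmalonate-semialdehyde dehydrogenase (Spo22055), of valine breakdown, rose by 1.22 (SE 0.22).

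**Figure D3:**
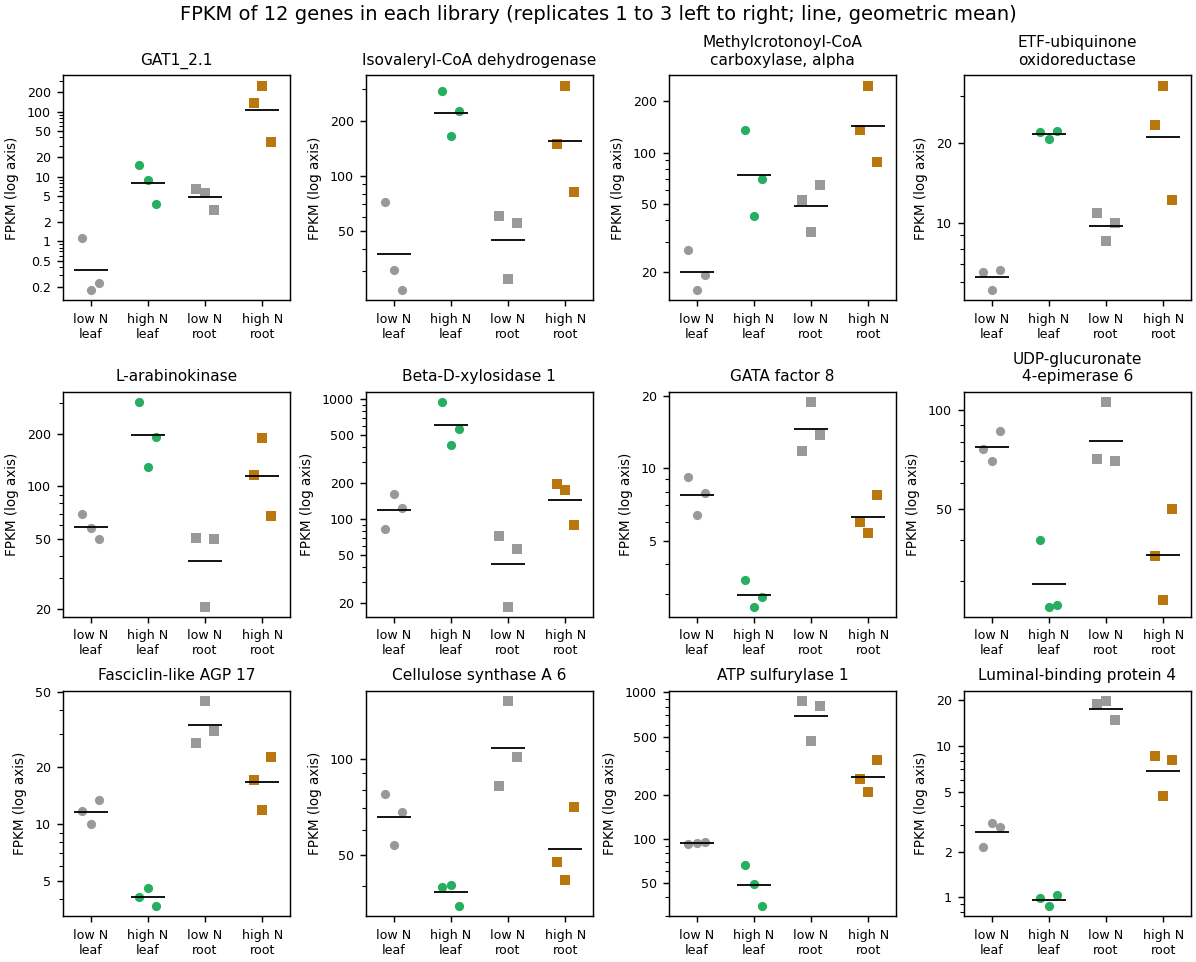
FPKM of 12 genes in each library on log axes, with replicates 1 to 3 from left to right in each of the 4 groups and a line at the geometric mean of the group. All 12 belong to the called genes whose libraries stand apart in both organs. By that choice the 3 high N libraries lie to one side of the 3 low N libraries in every panel, in leaf and in root. In root, replicate 3 of high N is the library closest to low N in most panels.

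Sugar release and reuse also moved. Of 22 genes for sugar salvage and nucleotide sugars, 13 were higher and 5 lower at an unadjusted p under 0.05, with a median log2 difference of 0.72. Beta-D-xylosidase 1 (Spo06262), which frees xylose from wall polymers, held 947, 419 and 568 FPKM in high N leaf and 82, 161 and 125 in low N leaf. Its root levels were 197, 175 and 88.8 FPKM against 72.2, 18.6 and 56.1, apart in both organs, with a log2 difference of 2.05 (SE 0.35). L-arabinokinase (Spo18414), which returns free arabinose to the nucleotide sugar pool, rose by 1.65 (SE 0.29). Aldose 1-epimerase (Spo02252), which interconverts the anomers of free sugars, rose by 1.48 (SE 0.24), and its root libraries came close, with 24.9 FPKM in the lowest at high N and 24.5 in the highest at low N.

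UDP-glucuronate 4-epimerase 6 (Spo08864), which makes the UDP-galacturonate used for pectin, went the other way within the same group. It held 40, 25.1 and 25.4 FPKM in high N leaf and 76.1, 70 and 86.6 in low N leaf, and in root 35.8, 26.3 and 50.1 against 71, 106 and 70. It fell by 1.25 on the log2 scale (SE 0.18), and no high N library reached the low N range of its tissue.

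Among 20 genes of starch, trehalose and organic acid metabolism, 10 were higher and 6 lower at an unadjusted p under 0.05, with a median of 0.45. Beta-amylase 3 (Spo09720), which turns starch to maltose in the plastid, was the only one to rise at the adjusted threshold. Its leaf level was 260.4, 344 and 273 FPKM at high N and 181, 92.9 and 68.8 at low N, and its root level 42.7, 104 and 41.6 against 13.4, 12.1 and 24.5 (log2 difference 1.62, SE 0.28).

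Of the regulators of the N response that were tested, 5 of 11 were higher and 6 lower at an unadjusted p under 0.05, so that none lay outside that threshold. Their median was −0.40, which became 0.40 with genes of at least 5 FPKM and 1.36 with genes of at least 1 FPKM in each organ. GATA transcription factor 8 (Spo11192), of a zinc finger family with members that respond to nitrate, fell by 1.11 (SE 0.14), with the smallest adjusted p of the whole comparison (0.0292 by limma, shared with PV42a). It held 3.42, 2.66 and 2.92 FPKM in high N leaf, 9.17, 6.37 and 7.9 in low N leaf, 5.97, 5.36 and 7.77 in high N root and 11.8, 18.8 and 13.8 in low N root. The log2 difference was −1.13 for leaf and −1.09 for root, nearly equal amounts. HHO5 (Spo08219), of the GARP family that in Arabidopsis holds nitrate-induced repressors, rose by 1.52 (SE 0.29). In root its high N libraries held 10.3, 9.62 and 2.9 FPKM and its low N libraries 2.5, 1.17 and 3.51, where high N replicate 3 lay below the highest low N library.

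PV42a (Spo16169) is a gamma-like subunit related to SnRK1, the plant energy-sensing kinase. Its leaf libraries held 8.69, 3.33 and 8.56 FPKM at high N and 0.342, 0.483 and 0.0891 at low N, and its root libraries 7.61, 8.05 and 4.26 against 1.16, 0.775 and 1.87. The groups were well apart in both organs, with a rise of 2.12 (SE 0.25). Cyclic dof factor 1 (Spo04720), named after its values were seen and in Arabidopsis a repressor of flowering, rose by 1.10 (SE 0.20) at 21.4 to 27.8 FPKM in high N leaf against 7.24 to 9.29 in low N leaf.

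No nitrate or ammonium transporter passed the adjusted threshold for a common effect. Of 23 tested, 1 was higher and 11 were lower at an unadjusted p under 0.05, with a median log2 difference of −0.42, and 15 of the 23 had a mean of at least 1 FPKM in both organs. The ammonium transporter AMT1-2 (Spo24676) was the only one with libraries apart in both organs. It held 0.956, 2.25 and 0.85 FPKM in high N leaf, 9.05, 6.35 and 2.48 in low N leaf, 89.6, 53.7 and 216 in high N root and 299, 299.7 and 230.3 in low N root, with log2 differences of −1.48 and −1.43 (limma adjusted p = 0.0847 for the common effect). The gene with the next identifier, Spo24677, matched the same protein, and how the counting divided reads between the copies is not known.

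The single transporter higher at an unadjusted p under 0.05 was CLC-b (Spo10449), an anion channel family member, with 139.8, 106 and 84.3 FPKM in high N leaf and 24.6, 36.2 and 37.4 in low N leaf. In root it held 39.4, 32.4 and 11.4 FPKM at high N and 13.3, 11.7 and 11.8 at low N, so that high N replicate 3 lay below all low N roots (log2 difference 1.33, limma adjusted p = 0.0648).

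NRT2.1 (Spo09968), a high-affinity nitrate uptake transporter of roots, differed between N levels in root and lay at or near 0 in leaf. Its leaf libraries were at 0 except for 0.0355 FPKM in 1 low N library, and its roots held 1.28, 0.198 and 101 FPKM at high N and 208, 272 and 167 at low N. The log2 difference was −0.02 in leaf and −5.02 in root, and the common value of −2.52 (SE 1.08) had a limma adjusted p of 0.272. High N root replicate 3 stood far above the other high N roots, and without it the common value was −3.12 (adjusted p = 0.155). A pair of list members matched to high-affinity transporter 2.5 (Spo03988) and to AMT1-2 (Spo16971) lay below the filter of 1 FPKM and were not tested.

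Among the NRT1/PTR family (NPF) genes, which carry nitrate and many other solutes, directions were mixed. The 3 copies matched to NPF1.2 (Spo01109, Spo25689 and Spo25690) had common log2 differences of −0.86, −0.71 and −0.79, with leaf and root the same way in each, and none passed the adjusted threshold. NPF7.3 copies differed, at −1.86 for Spo23405 and 0.29 for Spo24247. Copies matched to NPF6.2 differed too, at −0.88 for Spo16897 and 0.28 for Spo05548, with root differences of −1.71 and 0.78. NPF6.3 (Spo26413), the dual-affinity nitrate transporter and sensor of Arabidopsis, had a value of 0.03 (SE 0.48), with high N roots at 123, 67.3 and 23.1 FPKM and low N roots at 27.7, 113 and 15.8.

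For some transporters the organs pointed opposite ways, and the common value was near 0. The anion channel SLAH3 (Spo15968) had log2 differences of −1.05 in leaf and 1.10 in root, and the ammonium transporters AMT1-3 (Spo21031) and AMT3-1 (Spo20483) had −1.20 and 0.84, and −0.77 and 0.76. The other NPF genes with a common value between −0.42 and 0.60 were NPF2.13 (0.10), NPF4.6 (0.39), NPF5.8 (0.60), NPF5.10 (−0.29), NPF3.1 (−0.42) and NPF8.1 (−0.42). NPF2.11 had −0.60 and the high-affinity transporter 2.5 (Spo03990) −0.81, of which −0.12 came in leaf and −1.50 in root.

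**Figure D4:**
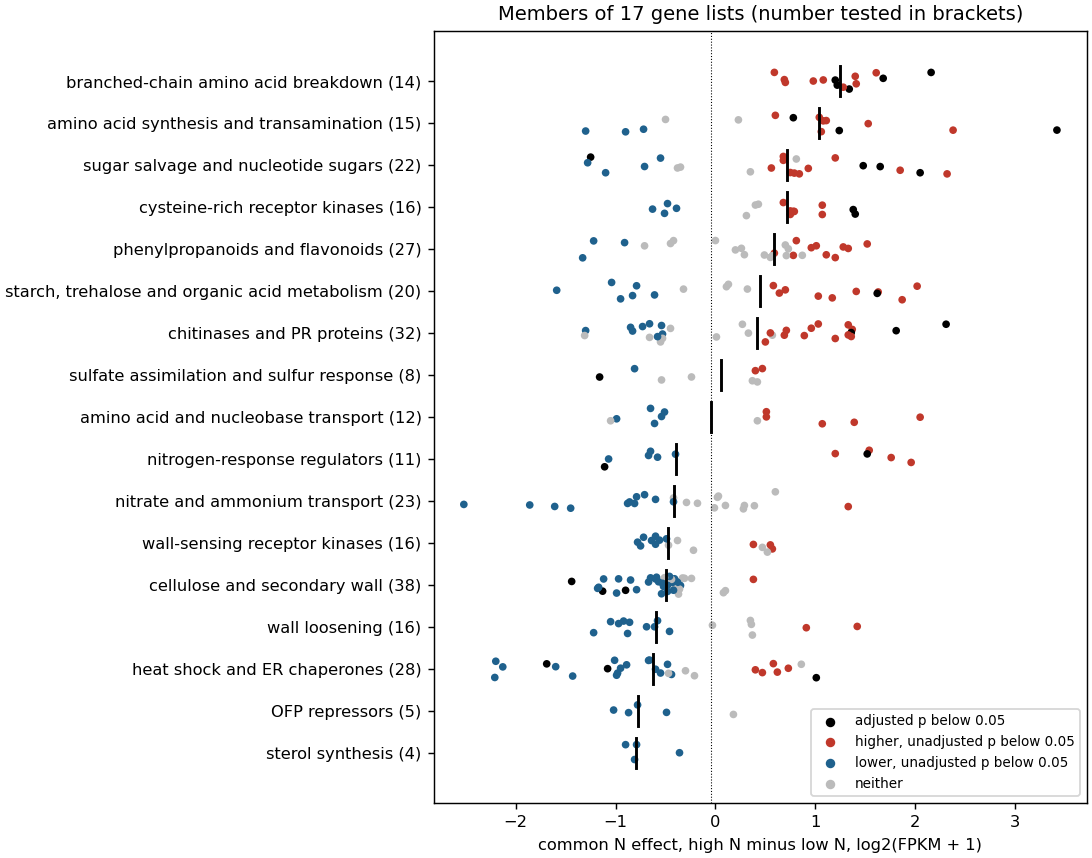
Common log2 difference of high N over low N for each tested member of every gene group except the leaf and root markers, with 1 point per gene, a bar at the group median and a dotted line at the median of all genes tested (−0.04). Branched-chain amino acid breakdown lies wholly above 0 and sterol synthesis wholly below it, and the other groups hold genes on both sides.

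Genes of cell wall building were mostly lower at high N. Of 38 for cellulose and the secondary wall, 27 were lower and 1 higher at an unadjusted p under 0.05, 3 fell at the adjusted threshold, and the median was −0.50, with −0.31 in leaf and −0.71 in root. The 3 calls became 0 to 7 when a library was left out, and 0 with plant as a random block or with means per plant. Of the 38, 24 had a mean of at least 1 FPKM in both organs. Leaf and root were both lower in 27, both higher in 1 and not alike in 10. The limma interaction had an unadjusted p under 0.05 in 13 of the 38, beside 6.75% of all genes tested, and an adjusted p under 0.05 in 0. IRX15-LIKE (Spo27067), of a family needed for xylan in Arabidopsis, held 0.27, 0.24 and 0.36 FPKM in high N leaf and 4.14, 1.26 and 1.22 in low N leaf. Its root libraries held 1.67, 2.79 and 5.19 FPKM against 12, 13.1 and 10.1, apart in both organs, and it fell by 1.44 (SE 0.25).

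CESA6 (Spo07185), a cellulose synthase subunit of the primary wall, shared the largest adjusted p of the 70 genes (0.0492 by limma) with formin-like protein 6 and the unnamed Spo25751. It held 39.9, 40.4 and 34.8 FPKM in high N leaf and 77.4, 53.9 and 68.4 in low N leaf, and 47.6, 42 and 70.9 in high N root against 82.5, 151 and 101 in low N root. It fell by 0.90 (SE 0.17). Fasciclin-like arabinogalactan protein 17 (Spo14116), a wall and surface glycoprotein, fell by 1.13 (SE 0.17), from 11.7, 10 and 13.4 to 4.13, 4.59 and 3.7 FPKM in leaf.

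Sterol synthesis genes and OFP repressors were also mostly lower at high N, without a gene past the adjusted threshold. All 4 sterol synthesis genes were lower at an unadjusted p under 0.05, with a median of −0.80. Methylsterol monooxygenase 1-1 (Spo26964) stood at −0.90 and the sterol desaturase CYP710A11 (Spo06253) at −0.81, with limma adjusted p-values of 0.0555 and 0.078. Of 5 OFP transcription repressors, a family that limits organ elongation in Arabidopsis, 4 were lower (median −0.78), with OFP2 (Spo07001) at −0.78 and OFP16 (Spo02234) at −1.02.

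Of 16 genes for wall-sensing receptor kinases and their peptide ligands, 8 were lower and 3 higher, with a median of −0.48. The peptide RALF-like 33 (Spo06335) held 228, 160.0 and 190.4 FPKM in high N leaf and 297, 311 and 285 in low N leaf, and in root 504, 467 and 631 against 1075, 1058 and 699. Its log2 difference was −0.72, and that of FERONIA (Spo04078), the receptor kinase that binds RALF peptides, was −0.64, both with libraries apart in leaf and root and limma adjusted p-values of 0.0572 and 0.078. Wall loosening genes numbered 16, with 10 lower and 2 higher at an unadjusted p under 0.05 and a median of −0.60. The median became 0.16 when only the 8 genes of at least 1 FPKM in each organ were kept. Leaf and root were both lower in 7 of the 16, both higher in 2 and not alike in 7. The limma interaction had an unadjusted p under 0.05 in 8 of the 16. Expansin-like A1 (Spo11774) was at 1.42 and expansin-like B1 (Spo09778) at −0.86.

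Probable boron transporter 2 (Spo17661), of a family of borate exporters, held 2.75, 3.77 and 2.02 FPKM in high N leaf, 7.83, 7.03 and 16.1 in low N leaf, 14.2, 12.5 and 21.1 in high N root and 30.3, 55.2 and 30.9 in low N root. It fell by 1.35 (SE 0.23), with the N levels apart in both organs. Formin-like protein 6 (Spo18836), of a family that nucleates actin filaments, fell by 1.03 (SE 0.20), and the subtilisin-like protease SBT2.5 (Spo06109) by 0.91 (SE 0.17).

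Among 28 heat shock and endoplasmic reticulum (ER) chaperone genes, 18 were lower and 6 higher at an unadjusted p under 0.05, with a median of −0.63. A small heat shock protein of the plastid (Spo12147) showed the largest fall of the 32, by 1.69 (SE 0.30). It held 2.15, 1.09 and 1.27 FPKM in high N leaf and 17.9, 6.4 and 3.27 in low N leaf, and 1.41, 1.23 and 1.38 in high N root against 9.04, 6.28 and 3.92. Low N libraries spread widely in both organs while high N libraries lay close together. Luminal-binding protein 4 (Spo06330), a BiP chaperone of the ER, fell by 1.08 (SE 0.15). DnaJ11 (Spo08372), a J-domain cochaperone of the plastid, rose by 1.01 (SE 0.17), with 2718, 1713 and 2221 FPKM in high N leaf and 1062, 1263 and 931 in low N leaf.

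ATP sulfurylase 1 (Spo11735), the first enzyme of sulfate assimilation, held 66.3, 48.9 and 35 FPKM in high N leaf and 91.7, 94.4 and 95.1 in low N leaf. Its root libraries held 257, 208 and 347 FPKM against 869.9, 468 and 804, and it fell by 1.16 (SE 0.20). The other 7 sulfur genes did not share a direction, and of all 8, 2 were higher and 2 lower, with a median of 0.06 made of −0.93 in leaf and 0.85 in root. APS reductase 1 (Spo13793), which acts after ATP sulfurylase, had log2 differences of −2.40 in leaf and 1.31 in root, and RESPONSE TO LOW SULFUR 4 (Spo22402) had −2.00 and 1.51. Neither passed the adjusted interaction test by limma, with adjusted p-values of 0.164 and 0.134. SULFUR DEFICIENCY-INDUCED 1 (Spo04503) did, with −0.91 in leaf and 1.65 in root (adjusted p = 0.0479). All 3 were picked once their values were known.

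Defence-related genes rose in part. Of 32 chitinase and pathogenesis-related genes, 15 were higher and 8 lower at an unadjusted p under 0.05, with a median of 0.42, made of −0.14 in leaf and 0.74 in root. Endochitinase EP3 (Spo20181), which cuts chitin, held 38.5, 15.4 and 5.59 FPKM in high N leaf and 3.49, 2.15 and 0.6 in low N leaf, and 1002, 968 and 614 in high N root against 270.0, 185 and 149.5. It rose by 2.31 (SE 0.39), with root more than leaf in level and the difference of similar size in both. Pathogenesis-related protein P2 (Spo17810) rose by 1.81 (SE 0.32) and a class V chitinase (Spo26436) by 1.36 (SE 0.20). These are multigene families, and reads shared between close copies could not be told apart here.

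Cysteine-rich receptor-like kinases gave 9 higher and 4 lower of 16, with a median of 0.72 made of 0.00 in leaf and 0.88 in root. Of the 16, 6 had a mean of at least 1 FPKM in both organs, and 8 did not share a direction between them. CRK29 (Spo14298) and CRK25 (Spo14297), which carry neighbouring identifiers, rose by 1.40 (SE 0.22) and 1.38 (SE 0.23). Their levels ran together, with 18, 21.1 and 15.7 FPKM for CRK29 and 14.4, 17.2 and 14.8 for CRK25 in high N root, and 9.54, 3.94 and 3.26 against 7.45, 3.36 and 3.16 in low N root. Whether reads are shared between the copies is not known.

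Outside the gene groups, GDPD1 (Spo05145), a plastid enzyme that in Arabidopsis releases glycerol-3-phosphate from phosphodiesters, had the second highest rise, by 3.07 (SE 0.57). Its low N leaf libraries held 16.4, 2.91 and 0.775 FPKM, a wide spread, beside 165, 51.4 and 45 at high N, and the root libraries held 108, 49.8 and 51.8 against 425, 432 and 163. The stem-specific protein TSJT1 was matched by a pair of genes that both rose. Spo14130 went from 434, 397 and 228 to 1627, 1521 and 1455 FPKM in leaf and from 256, 102 and 281 to 849, 1289 and 362 in root (log2 difference 2.04, SE 0.32), and Spo01739 rose by 1.02 (SE 0.18).

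The remaining rises that the rule named were AMSH-like ubiquitin thioesterase 2 (Spo10653, 1.48, SE 0.26), of a family of deubiquitinating enzymes, and Spo22463 (1.43, SE 0.25), whose best match was a dehydrogenase of an archaeon. The remaining falls were NDL2 (Spo14400, −1.36, SE 0.24), NDR1/HIN1-like protein 13 (Spo22508, −1.16, SE 0.18), the RING-type ubiquitin ligase family member ATL66 (Spo04204, −0.92, SE 0.14) and the probable RNA-binding protein ARP1 (Spo23847, −0.84, SE 0.15). NDL2 held 2.18, 3.77 and 2.14 FPKM in high N leaf and 15.3, 6.42 and 10.1 in low N leaf.

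Unnamed genes were among those with the largest changes. Spo09152 held 453, 375 and 486 FPKM in high N leaf and 127, 114 and 114 in low N leaf, and 64.9, 160.2 and 25.1 in high N root against 8.81, 6.22 and 11.4, and it rose by 2.32 (SE 0.35). Spo12106 rose with log2 differences of 1.92 in leaf and 2.27 in root (SE 0.36 for the common value). Spo07236 fell by 1.67 (SE 0.27) and Spo13482 by 1.41 (SE 0.25), the latter from 481, 1023 and 627 to 252, 166 and 231 FPKM in root.

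The test of leaf against root asked where the N difference was unequal. At an unadjusted p under 0.05 it found 1242 genes (6.75%), and at an adjusted p under 0.05 by limma 30 genes (0.163%), of which 0 were among the 70. The fit behind the 70 disfavours such genes, so their absence there is not a separate result. With its sign, the root difference lay above the leaf difference in 29 of the 30. By size it was larger in root in 23 and larger in leaf in 7, such as the unnamed Spo04094, picked for this (−1.57 in leaf and −0.13 in root). The signs were opposite in 16, of which 8 had an unadjusted within-tissue limma p under 0.05 in both organs, and in 15 of the 30 the leaf mean lay below 1 FPKM. The count was 2 with a pseudocount of 0.1 and 0 when only genes of at least 1 FPKM in both organs were tested. It was 0 without high N leaf replicate 1 or 2 or high N root replicate 1, 1 without high N root replicate 2 or low N leaf replicate 2, 7 without low N leaf replicate 3 and 10 without high N leaf replicate 3. It was 16 and 17 without low N root replicates 2 and 3, and 58 without low N root replicate 1.

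Phenylpropanoid and flavonoid genes held 7 of the 30. Their group had 10 higher and 3 lower of 27 at an unadjusted p under 0.05, with a median of 0.59, made of −0.13 in leaf and 1.18 in root. With genes of at least 1 FPKM in both organs it was 3 higher and 3 lower of 17 (median 0.29), and by voom 16 higher and 4 lower of 27 (median 1.19). A chalcone-flavonone isomerase (Spo18570), which closes a ring of the flavonoid skeleton and was named after its values were seen, held 5.23, 6.24 and 7.89 FPKM in high N leaf, 9.32, 12.5 and 23.1 in low N leaf, 546, 781 and 611 in high N root and 96.1, 129.8 and 63.6 in low N root. The log2 difference was −1.02 in leaf and 2.77 in root (interaction adjusted p = 0.0167 by limma), and the common value of 0.87 describes neither organ. Cinnamoyl-CoA reductase-like SNL6 (Spo23280) had 0.50 in leaf and 2.55 in root, whereas cinnamoyl-CoA reductase 1 (Spo19889), a lignin pathway enzyme, was lower by like amounts, at −0.92 and −0.90.

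Amino acid and nucleobase transporters had 5 higher and 5 lower of 12 and a median of −0.04. With genes of at least 1 FPKM in both organs it was 5 higher and 2 lower of 8, and with genes of at least 5 FPKM 5 higher and 3 lower of 9, both with a median of 0.51. The WAT1-related Spo14333 was at 0 in all low N leaf libraries and at 6.65, 0.471 and 2.97 FPKM in high N leaf, with root at 29.1, 60.3 and 9.49 against 5.44, 3.49 and 5.05 (log2 difference 2.05, limma adjusted p = 0.068). AZG2 (Spo08777), an adenine and guanine permease, stood at −0.99.

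Marker genes of the organs also differed in part with N. Of the 11 photosynthesis genes, 1 was higher and 2 were lower at an unadjusted p under 0.05. Their median was 0.23, made of −0.11 in leaf and 0.50 in root. Leaf and root did not share a direction in 8 of the 11. The limma interaction had an unadjusted p under 0.05 in 10 of the 11, beside 6.75% of all genes tested. The summed level of the 11 was 21529 to 26330.4 FPKM in high N leaf and 25882 to 31303 in low N leaf. The part of this in the common effect was not tested. Photosystem II 22 kDa protein (Spo23712), which serves in heat dissipation of excess light, stood at −0.75 in leaf and −0.05 in root. Photosystem I subunit V (Spo03847) had its difference in root, at −0.97 on levels of at most 2.07 FPKM, beside −0.06 in leaf.

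Of the 7 root uptake genes that passed the filter, 1 was higher and 4 were lower at an unadjusted p under 0.05. Their median was −0.60. The limma interaction had an unadjusted p under 0.05 in 6 of the 7. The phosphate transporter PHT1-1 (Spo19049) was at 0 in all leaf libraries and at 2.29, 2.25 and 3.72 FPKM in high N root against 6.61, 8.23 and 9.57 in low N root. Phosphate transporter 1-7 (Spo19056), named after its values were seen, went the other way at 51.8, 27.7 and 46.1 FPKM in high N root against 24.4, 3.67 and 9.15 in low N root, a log2 difference of 1.96 in root. The silicon efflux transporter LSI3 (Spo04406) stood at −0.60 for the common effect. The part of tissue makeup in the common effect was not tested.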

How the data were processed

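Libraries were single samples of leaf or root. Per the study's methods, the authors aligned paired reads to the spinach genome, counted them per gene and converted the counts to FPKM, and the deposited table holds those FPKM values. The submitters' processing notes name other tools for the same steps (HISAT2 2.1.0 among them), so the aligner behind the table is not certain. No column was left unused. Genes with a mean of at least 1 FPKM were tested on log2(FPKM + 1) with limma 3.58.1 (R 4.3.3, empirical Bayes with variance trend), with tissue and N as terms, and an added interaction for leaf against root. P-values were adjusted by Benjamini-Hochberg. Single genes were also tested by exact permutation of N labels within tissue, two-sided. Within one tissue, an exact permutation of 3 libraries against 3 cannot go below p = 0.10. Whole fragments (relative tolerance 1e-08) were worked back from the FPKM steps for all 23015 genes above 0, for depth and for voom. Depth intervals and floors cover counting error only.

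Genes were named by rule as the 15 named genes with the largest rises and the 15 with the largest falls past the adjusted threshold, the 2 largest unnamed of each, every list member past it or, where a list had none, its 2 with the smallest p, and all nitrate and ammonium transport and amino acid synthesis genes. The 19 lists hold 345 genes, of which 21 were below the filter. Members and lists were chosen with earlier results of these data known. Names came from the study's tables of its called genes and from its text. The fit was checked on simulated data with independent libraries and a dispersion of 0.1 for every gene. In the real libraries spread differs between genes, so the shares recovered need not hold for them. At an adjusted p under 0.05 it recovered 20.2% of simulated 2-fold changes and 96.9% of simulated 4-fold changes. A gene that did not pass the adjusted threshold may thus still have changed. Alternatives were another pseudocount, other filters, scalings and variance models, voom, replicate blocks and leaving out each library.

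Gene sequences and coordinates were not used here, because gene identifiers of the table match none in the annotation at hand.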

Additional observations from a re-analysis of the deposited data

Results flagged for a closer look

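The N difference of 30 genes was unequal in leaf and root at an adjusted p under 0.05 by the limma interaction test. The only gene of these that the naming rule also picked as a leading gene of its list was cinnamoyl-CoA reductase-like SNL6 (Spo23280), a relative of lignin pathway enzymes, where the root log2 difference exceeded the leaf difference by 2.05. It held 20, 15.9 and 25.1 FPKM in high N leaf, 10.6, 13.6 and 18.5 in low N leaf, 28.3, 29.8 and 40.1 in high N root and 5.69, 4.31 and 4.23 in low N root. Roots were apart at every library, and leaf libraries overlapped.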

How the results depend on the processing

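The adjusted calls of the common N effect sit at their threshold and depend on the setting. Beside 70 genes, there were 0 with no filter on low values, 2 after quantile normalization, 132 with array weights, 216 by voom on worked-back fragments and 174 with all 4 groups as separate terms, and 0 to 278 when a library was left out. The unadjusted count stayed within 1.5 times of 3042 in every setting, from 2265 to 3611. The share of higher genes was 48.7% after median-of-ratios scaling and 53.3% after quantile normalization, which turns its majority. The 30 genes of unequal leaf and root difference became 2 with a pseudocount of 0.1, 12 with no filter, 0 with at least 1 FPKM in both organs, 112 with array weights, 0 by voom and 0 to 58 when a library was left out. At an unadjusted limma p under 0.05 the settings gave 790 to 2526 such genes beside 1242. The cause of these moves was not tested. Of 2323 values for 94 tested named genes, 1687 kept their side of the threshold, 585 lost the adjusted call, 51 gained it and 0 called values turned sign, while 22 uncalled values in 5 genes did. Called genes were picked on these same libraries, so their kept sign is not independent support. Genes near 3 fragments are limited by depth.

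The replicate numbers were not taken as pairing in the main fit, because the methods do not state it. Same-number leaf and root deviations correlated at 0.09 to 0.37, all above 0, and 5 of 6 pairs were over the threshold of 0.1. Same-number high N and low N libraries of a tissue, which are different plants, correlated at −0.02 to 0.27, a range that overlaps the first. As a hint from the data, 10 of 12 libraries correlated best with their own number. With the number as a replicate block, which also ties different plants of high and low N together, the common effect called 84 genes and the interaction 1. With plant as a random block, or with leaf and root averaged per plant, the common effect called 2 genes.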
